A study of Homo sapiens with 1 sample.

Results

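The miR-200 family was examined in DLD-1, a human colorectal carcinoma cell line, on 1 microRNA (miRNA) array. Its 9 mature miRNAs were found by name among the 2549 human miRNAs of the array: hsa-miR-200a-3p, hsa-miR-200a-5p, hsa-miR-200b-3p, hsa-miR-200b-5p, hsa-miR-200c-3p, hsa-miR-200c-5p, hsa-miR-141-3p, hsa-miR-141-5p and hsa-miR-429. The DLD-1 cells carried the negative control plasmid pLVX-NC and were grown in RPMI 1640 medium with fetal bovine serum. The study set this control against cells overexpressing the circular RNA circLONP2, which were not analysed here. Cy3-labelled RNA was hybridized to a 1-colour array, and each value is the background-subtracted brightness of spots on a linear scale. With 1 array there was no biological replicate, so no test was made, and every ± is an SD over spots of the same array.

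The miR-200 family is known for keeping epithelial cells epithelial. Its members repress ZEB1 and ZEB2, transcription factors that shut down the adhesion gene CDH1 (E-cadherin) and that in turn repress the miR-200 loci, so that the miRNAs and the factors hold each other down. A miRNA hairpin is cut into a 5p and a 3p strand, and the strand loaded into Argonaute finds its targets mainly through the seed, bases 2 to 8 from its 5′ end. For this family the 3p strands are the ones usually described as guides, and miR-429 is also a 3p strand.

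The 5 hairpins come from 2 loci. MIR200B, MIR200A and MIR429 lie in this order on the plus strand of chromosome 1 (GRCh38.p14), inside the long non-coding RNA gene MIR200BHG. Their mature miRNAs span chr1:1167124-1167181, chr1:1167878-1167937 and chr1:1169055-1169076, which leaves 696 and 1117 bases between them. MIR200C and MIR141 lie on the plus strand of chromosome 12 inside MIR200CHG. The mature miRNAs of MIR200C span chr12:6963703-6963764, and miR-141-3p lies at chr12:6964155-6964176, with 390 bases between the end of miR-200c-3p and its start. Mature sequences from RefSeq were matched by name for 8 of the 9 members, all but miR-141-5p. They are shown in full because members of the same seed group differ at so few bases, with the seed in capitals:
hsa-miR-200b-3p: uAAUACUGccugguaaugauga
hsa-miR-200c-3p: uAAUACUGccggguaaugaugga
hsa-miR-429: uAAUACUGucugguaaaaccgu
hsa-miR-200a-3p: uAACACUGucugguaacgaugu
hsa-miR-141-3p: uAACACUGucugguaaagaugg
hsa-miR-200b-5p: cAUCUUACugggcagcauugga
hsa-miR-200a-5p: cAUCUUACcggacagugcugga
hsa-miR-200c-5p: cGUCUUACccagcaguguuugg

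The 3p strands form 2 seed groups, AAUACUG in miR-200b-3p, miR-200c-3p and miR-429, and AACACUG in miR-200a-3p and miR-141-3p. Counted from 1 at the 5′ end, the seeds differ by a single base, C4U going from miR-200a-3p to miR-200b-3p. Each locus holds both seeds. In the RefSeq table these 3 and 2 sequences were the only human mature miRNAs with those seeds. Of the 5p strands, miR-200a-5p and miR-200b-5p share the seed AUCUUAC. The seed GUCUUAC of miR-200c-5p also occurs in hsa-miR-550a-3p, which is outside the family and was not detected, with a mean brightness of 1.31 ± 1.79 (SD over 20 spots).

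On the control array, 7 of the 9 members carried the detection flag of the scanner software, which 56.8% of all human miRNAs did. All 5 of the 3p strands were detected, as were 2 of the 4 5p strands, those of miR-200a and miR-200b. Signals below are mean log2 brightness, taken first within each probe and then across probes, minus the log2 of a reference brightness of 248.8, the 75th percentile among 2567 detected probes. On this scale the median of the 7 detected members was -1.74, beside -2.06 over all detected human miRNAs. These values describe brightness and not RNA amounts, because probes for different miRNAs bind with different strength.

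miR-141-3p stood far above the rest of the family. Its mean brightness was 3024 ± 401 (SD over 20 spots), the 27th brightest of the 2549 human miRNAs, with a log2 signal of 3.59. It was measured by 2 probes, at 3410 ± 77.5 and 2637 ± 43.7 (SD over 10 spots each), and no spot of either fell below 2592. The other 6 detected members lay below the reference, although miR-200b-3p, miR-200b-5p and miR-200c-3p lay above it when the percentile was taken over all probes. In the total signal that the software computes per miRNA, miR-141-3p held 89.5% of the sum over the 7 detected members.

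The 3p strands of the chromosome 1 locus were dim to moderate. miR-200b-3p averaged 81.2 ± 9.37 (SD, 20 spots), each of them well above background, with probes at 73.2 and 89.3. miR-429 averaged 30.9 ± 3.32 (SD, 20 spots), and its 2 probes nearly coincided at 30.2 and 31.6. miR-200a-3p was the dimmest detected member, with a mean of 18.3 ± 9.05 (SD over 19 spots), and only 10 of the 19 spots were well above background. These 10 spots were all those of the probe at 26.4 ± 3.09, whereas the 9 spots of the other probe averaged 9.37 ± 1.16, below the dimmest detected probe of the array at 13.7. Differences from miR-200a-3p were therefore also taken with the brightest probe of each miRNA, in part as alternatives added after the values were seen.

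miR-200c-3p, the other 3p strand of the chromosome 12 locus, averaged 85.3 ± 29.8 (SD, 17 spots), and 3 further spots were left out as outliers. Its wide SD came from its 2 probes, at 51.0 ± 2.04 over 7 spots and 109.4 ± 4.19 over 10 spots, which did not overlap. Probes more than 2-fold apart, as for miR-200a-3p and miR-200c-3p, occurred in 2 of the 7 detected members and in 24.7% of all detected miRNAs with several probes.

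Among the 5p strands, usually regarded as passengers, miR-200b-5p averaged 104.7 ± 21.6 (SD, 18 spots) over 4 probes that ranged from 82.9 to 118.2. It was the second brightest member. miR-200a-5p had a mean of 43.4 ± 8.03 (SD over 20 spots), with 3 probes between 36.6 and 53.3. Both were well above background in every spot used. miR-200c-5p averaged 2.44 ± 2.26 and miR-141-5p averaged -0.625 ± 1.91 (SD over 20 spots each), with 0 spots well above background. By the detection flag, the chromosome 12 locus thus gave no detected 5p strand. Single probes of miR-200c-5p had 3 of 5 and 4 of 5 spots flagged positive and significant, so that it was detected under that looser criterion.

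**Figure D1:**
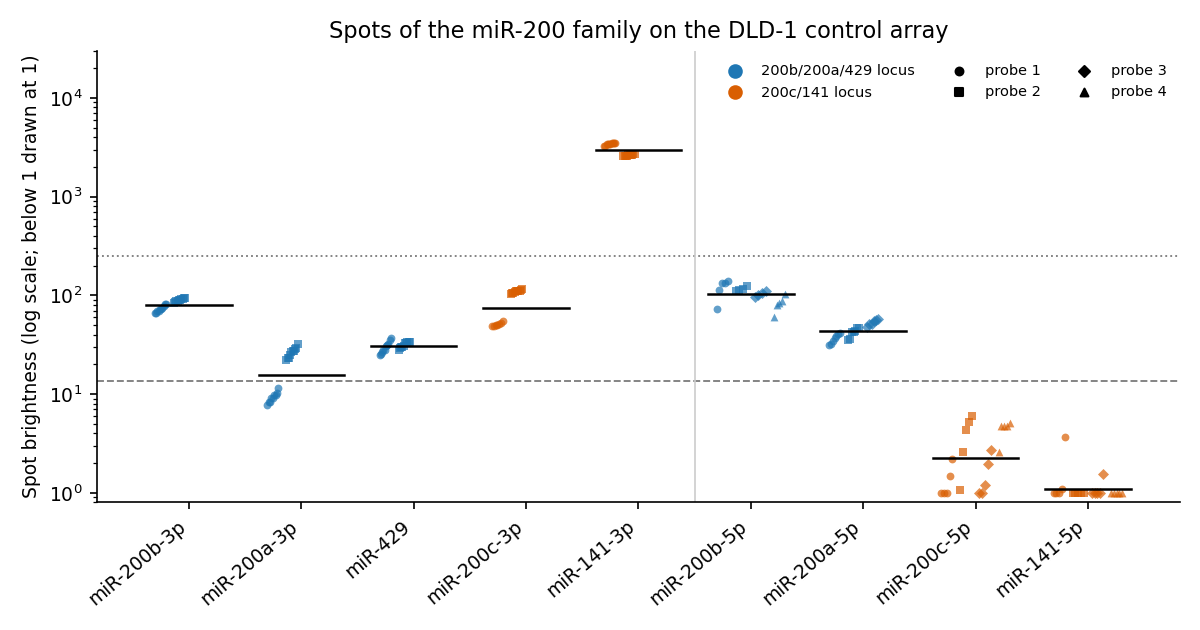
Brightness of every spot used for the 9 members (log axis, values below 1 drawn at 1), 3p strands on the left and 5p strands on the right, coloured by locus and shaped by probe. Black bars are means of the log2 probe values, the dotted line is the reference percentile at 248.8, and the dashed line is the dimmest detected probe at 13.7. Only miR-141-3p lies above the dotted line, and miR-200c-5p and miR-141-5p lie wholly below the dashed line.

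Ordered by signal, the detected members ran miR-141-3p, miR-200b-5p, miR-200b-3p, miR-200c-3p, miR-200a-5p, miR-429 and miR-200a-3p. miR-141-3p exceeded the next member, miR-200b-5p, by 4.86 on the log2 scale (standard error 0.06 from the spots). Each standard error given here leaves out the spread between probes of a miRNA. miR-200b-5p, miR-200b-3p, miR-200c-3p and miR-200a-5p could not be separated stepwise, because the ranges of their probes overlapped between neighbours. Every probe of miR-200b-5p and miR-200b-3p was still brighter than every probe of miR-200a-5p, and only the wide range of miR-200c-3p reached both. miR-200a-5p exceeded miR-429 by 0.49 (standard error 0.05), and the ranges of their probes did not overlap. miR-429 exceeded miR-200a-3p by 0.97 over the probes' mean and by 0.26 with the brightest probe of each. The deposited normalized log2 values followed the same order, at 10.8, 4.89, 4.48, 4.47, 3.62, 3.22 and 2.33, the last of them close to the lowest deposited value of 2.32. Position on the array moved little with these values. Over the 134 spots of detected members, the mean log2 deviation from the probe mean ran from -0.03 to 0.03 across the left and right parts of the array and from -0.01 to 0.01 across its upper and lower parts.

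**Figure D2:**
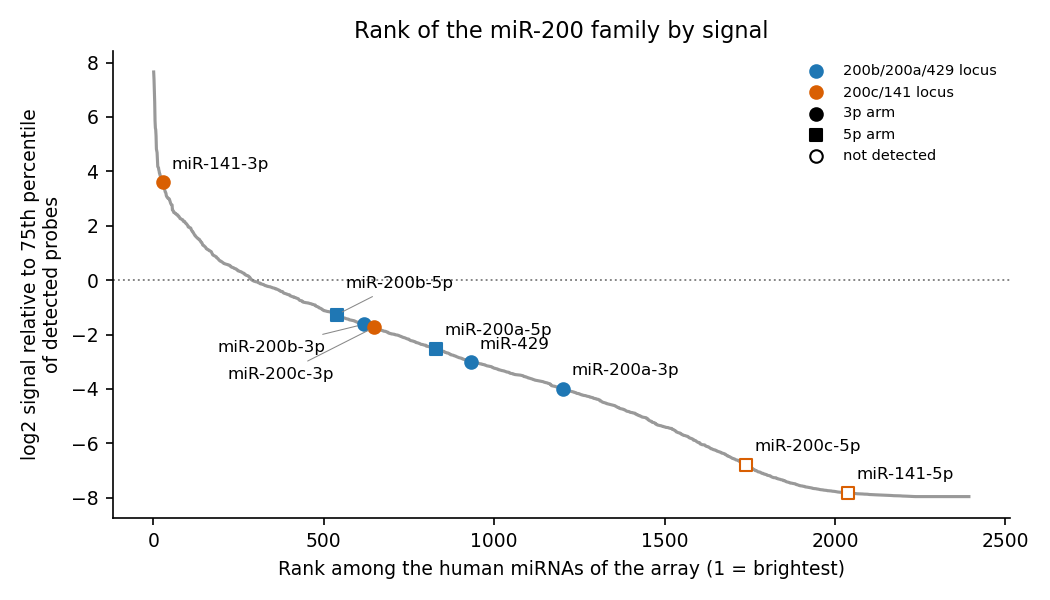
Log2 signal, with 0 at the reference brightness of 248.8 (vertical axis), against rank among the 2549 human miRNAs of the array (horizontal axis), with the grey line for all of them. Circles are 3p strands, squares 5p strands, and open symbols members not detected. miR-141-3p is at rank 27, and the other 6 detected members lie between rank 538 and rank 1202.

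Next, the loci were set side by side. Over 3p strands, the mean log2 signal was 0.93 for the chromosome 12 locus (miR-200c-3p and miR-141-3p) and -2.88 for the chromosome 1 locus (miR-200b-3p, miR-200a-3p and miR-429), a difference of 3.81. Most of it was carried by miR-141-3p. Without that strand, a comparison added after the values were seen, miR-200c-3p alone exceeded the chromosome 1 mean by 1.14. At -1.74, miR-200c-3p did not exceed miR-200b-3p of chromosome 1, at -1.62. The chromosome 1 mean also takes in miR-429 at -3.02 and miR-200a-3p at -3.99. The strands within a locus were not at one level either. Taking the brightest detected strand of each hairpin, MIR200C and MIR141 differed 40.2-fold in brightness, MIR200B and MIR200A 2.39-fold, and MIR200A and MIR429 1.41-fold. For MIR200B and MIR200A that strand was the 5p strand. Between 3p strands, over the probes' mean, miR-200b-3p and miR-200a-3p differed 5.16-fold, and miR-429 and miR-200a-3p 1.96-fold. By brightest strand, hairpins within 10000 bases of each other on the same strand differed more than 4-fold in 40.9% of 132 such pairs on this array, and 7 pairs lay further apart than MIR200C and MIR141.

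The seed groups gave no stable order. The mean log2 signal was -2.13 for the AAUACUG group and -0.20 for the AACACUG group, a difference of -1.93. Without miR-141-3p the sign turned, and the AAUACUG group exceeded miR-200a-3p alone by 1.87, or by 1.36 with the brightest probe of each miRNA. The AACACUG group thus holds both the brightest and the dimmest detected member of the family, while the AAUACUG strands lay within 1.39 of each other on the log2 scale.

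The sequences printed above place the closest relatives at opposite ends or at the same level. miR-200b-3p and miR-200c-3p come from different chromosomes, differ by U11G and A22G and by the extra last base of miR-200c-3p, and differed by 0.11 in log2 brightness. miR-200a-3p and miR-141-3p also come from different chromosomes, match at every base but C17A and U22G, and were 192-fold apart in brightness over the probes' mean and 130-fold with the brightest probe of each. Mature miRNAs that differ at 1 or 2 positions, both detected, were more than 4-fold apart in 28.9% of 45 such pairs, and the miR-200a-3p and miR-141-3p pair was the furthest apart of the 45 by either summary. Brightness at the miR-200a-3p probes was 0.310% and 0.874% of that at the miR-141-3p probes. Probes of the other detected members read from 0.998% to 3.91% of the miR-141-3p brightness, and the part of cross-binding in these values was not tested. The mature 3p strands held 8 to 10 G or C bases each, and miR-200a-3p and miR-141-3p both held 9.

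**Figure D3:**
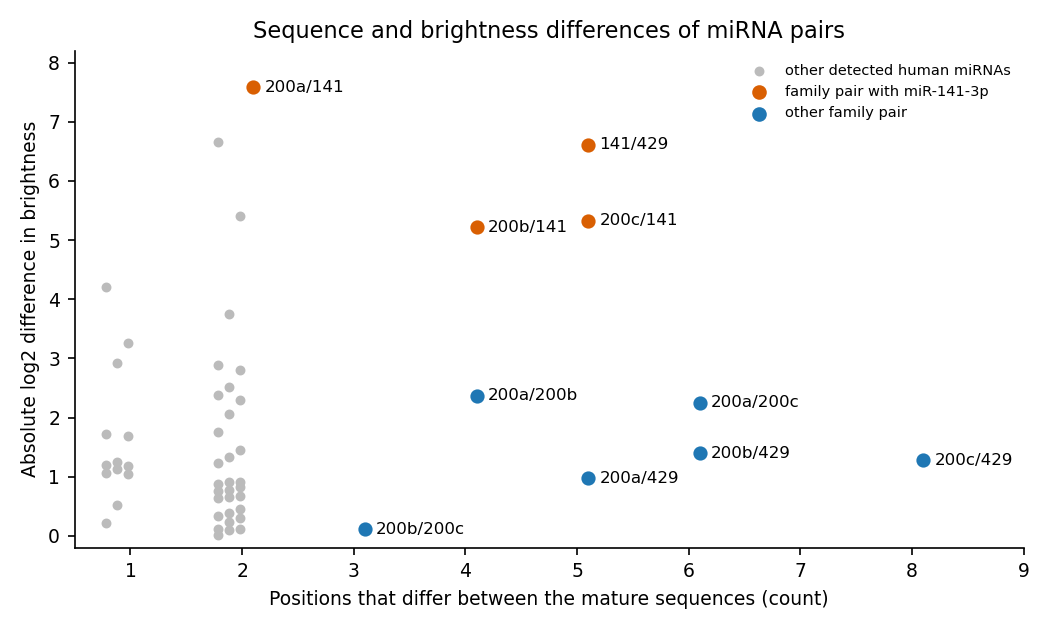
Absolute log2 difference in brightness (vertical axis) against the number of positions at which the mature sequences differ (horizontal axis), for the 10 pairs of 3p strands of the family and, in grey, for other detected human miRNAs that differ at 1 or 2 positions. Points are offset sideways for visibility. The 4 pairs with miR-141-3p lie between 5.22 and 7.58, and the other 6 family pairs between 0.11 and 2.37.

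The strands of each hairpin were then compared. In miR-200a the 3p strand was dimmer than the 5p strand by a log2 difference of -1.47 over the probes' mean, which takes in the 3p probe with 0 spots well above background. With the brightest probe of each strand the difference was -1.02, and the smallest difference among all pairings of their probes was -0.47. In miR-200b the difference was -0.35 (standard error 0.06), but pairings of single probes ran from -0.66 to 0.13, so the order of its strands depended on the probe. The 5p strand was thus the brighter one on average in 2 of 2 family hairpins with both strands detected, as it was in 65.9% of the 255 human hairpins of that kind. The median difference over these 255 was -1.34.

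The chromosome 12 hairpins showed the opposite side. With the undetected 5p strand set at the dimmest detected probe of the array, miR-141-3p was at least 192-fold brighter than its partner by its dimmer probe and 219-fold over its probes' mean. miR-200c-3p was in the same way at least 3.71-fold brighter by its dimmer probe and 5.44-fold over its probes' mean. By the detection flag, only the 3p strand was detected in these 2 of the 4 family hairpins with both strands on the array. The same held in 17.8% of all 810 such human hairpins. For miR-200c the call changed under the looser criterion of positive and significant spots.

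**Figure D4:**
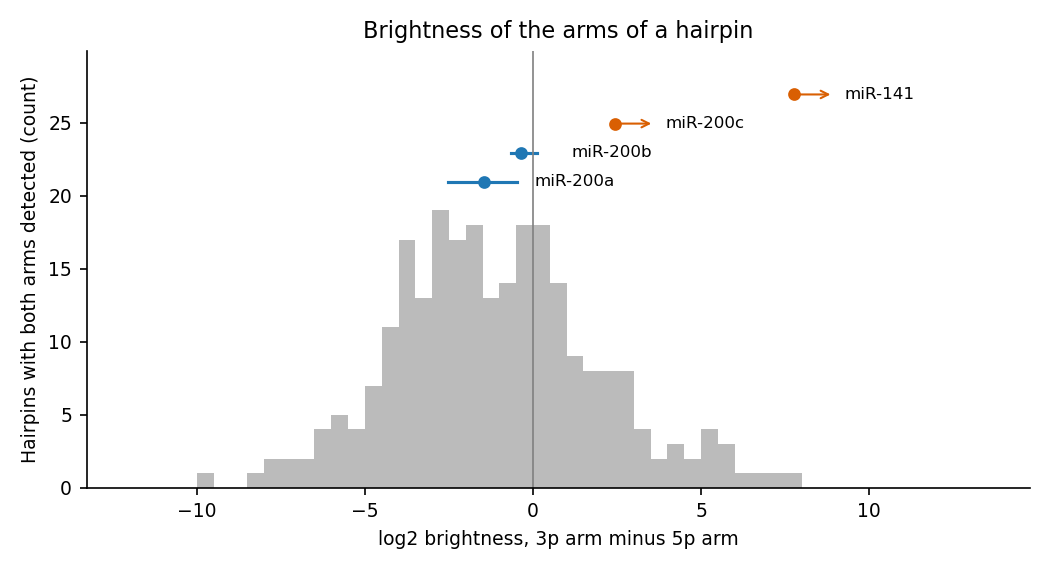
Log2 brightness of the 3p strand minus the 5p strand (horizontal axis) for the 255 human hairpins with both strands detected (grey bars, counts on the vertical axis). The 4 family hairpins are drawn above the bars, where height has no meaning. Lines span the pairings of single probes for miR-200a and miR-200b, and arrows start at the values for miR-200c, 2.44, and miR-141, 7.77, with the undetected 5p strand set at the dimmest detected probe.

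Finally, the family was set beside other miRNAs known from epithelial cells and from epithelial-mesenchymal transition (EMT), the change of cell state that the miR-200 family restrains. Of 10 epithelial miRNAs, 6 were detected, beside 56.8% of all human miRNAs, with a median log2 signal of -4.54 over the list. The brightest was miR-205-5p, another repressor of ZEB1 and ZEB2, with a log2 signal of -1.33, and the dimmest detected by log2 signal was miR-183-5p, at -4.70 with 9 of its 20 spots well above background. miR-192-5p, miR-194-5p, miR-96-5p and miR-182-5p were not detected.

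Of 6 other miRNAs known to restrain EMT, 4 were detected, from miR-203a-3p at 14.9 ± 2.47 (SD, 20 spots, of which 1 was well above background) to miR-205-5p, and miR-101-3p and miR-138-5p were not. The share detected over all human miRNAs was 56.8%. Of 7 miRNAs known to promote EMT, 6 were detected. Among these, miR-155-5p, best known from immune cells, was brightest at 212.4 ± 15.5 (SD over 17 spots), above every member of the family but miR-141-3p, and miR-10b-5p was dimmest at 12.2 ± 5.76 (SD over 20 spots, of which 4 were well above background). miR-9-5p was not detected. The median log2 signals were -3.31 for the restraining and -3.08 for the promoting list, and miR-205-5p and miR-203a-3p stand in both the epithelial and the restraining list.

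The label of the sample was checked against miRNAs that mark cell types. The counts below stand beside the 56.8% of all human miRNAs that were detected. Of 4 markers of colorectal epithelium, miR-215-5p and miR-375 were detected, at 45.9 ± 4.11 and 34.8 ± 7.08 (SD over 20 spots each). miR-192-5p and miR-194-5p had mean brightness values of 5.46 ± 2.56 and 0.209 ± 1.90 (SD over 20 spots each), with 0 spots well above background. Of 11 markers of stromal, endothelial and blood cells, 5 were detected, with mean brightness values from -1.33 to 58.9 over the list. The brightest was miR-126-3p and the dimmest detected was miR-150-5p, at 12.2 ± 24.5 (SD over 19 spots). miR-145-5p, miR-223-3p and miR-142-3p were the other 3 detected. Spots well above background were 5 of 19 for miR-150-5p, 5 of 20 for miR-223-3p and 7 of 17 for miR-142-3p. For miR-126-3p and miR-145-5p they were 19 of 19 and 18 of 18. Of 6 markers of muscle, liver and brain, 3 were detected, namely miR-124-3p at 77.2 ± 19.4 (SD over 20 spots), miR-206 and miR-133a-3p. In these, 20 of 20, 17 of 20 and 1 of 19 spots were well above background, and the list ran from -2.04 upward. When every spot of a probe had to be well above background, 1 of these 6 was detected. The 56.8% does not apply to that count, because the share over all human miRNAs was not taken under this criterion. The log2 signal of the brain miRNA miR-124-3p was -1.73, beside -1.74 for miR-200c-3p. The source of these marker signals and their bearing on the levels of the family were not tested.

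**Figure D5:**
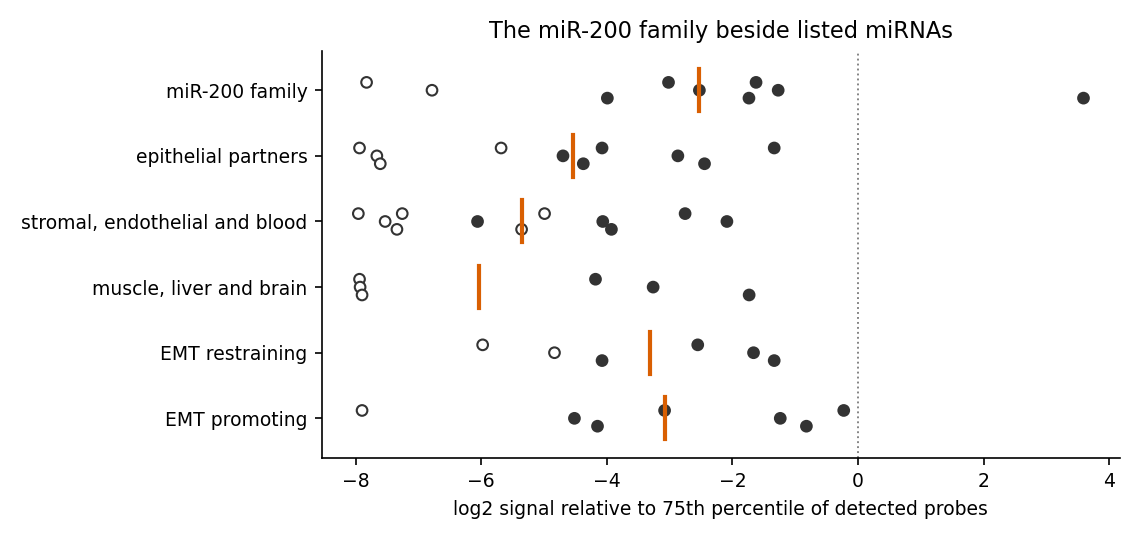
Log2 signal, with 0 at the reference brightness of 248.8 (horizontal axis), for the 9 members and for the miRNAs of 5 lists. Filled points were detected, open points were not, orange bars are medians over each list, and points are offset vertically for visibility. miR-141-3p at 3.59 is the only point right of the dotted line at 0.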

How the data were processed

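The scanner output deposited for 1 array of DLD-1 control cells holds the intensity of each spot, read per the file headers by Agilent Feature Extraction 11.0.1.1, which subtracted the background and flagged detected miRNAs. A further table from the authors holds log2 values, quantile normalized in GeneSpring GX per the methods. Their median is 2.33. Spots marked as outliers (4.06% of 50980) were left out, intensities below 1 were set to 1, and no spot was saturated. A probe counted as detected when its miRNA was flagged and at least 0.5 of its spots were well above background. Normexp correction in limma 3.58.1 (offset 50, R 4.3.3) used median spot signals. Python 3.11.15, numpy 2.4.6 and pandas 2.3.3 were used.

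The named miRNAs are the 9 members, any miRNA sharing their seeds, and, of each list, the brightest, the dimmest detected and those not detected or detected, whichever were fewer. Members and lists were chosen with earlier results of these data known, and the 4-fold and 2-fold limits after the values were seen. Alternatives covered detection, background correction, outlier spots, scaling and how probes are summarized. RefSeq sequences matched 2248 of the 2549 human miRNAs. The number of arrays limits the precision.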

Additional observations from a re-analysis of the deposited data

How the results depend on the processing

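Under the other detection criteria 7 or 8 members were detected. The share over all human miRNAs was taken with the software's flag only, so these counts and the listed counts below stand without it. The count of 8 took in miR-200c-5p, when at least 0.5 of the spots of a probe had to be positive and significant. Of the listed counts only that of muscle, liver and brain markers moved by over 1.5 times. It went from 3 to 1 when every spot of a probe had to be well above background. The epithelial count fell from 6 to 4 when at least 0.5, or every one, of the spots had to be so. That of EMT-promoting miRNAs fell from 6 to 4 with every spot. With positive and significant spots, the EMT-restraining count rose from 4 to 6 and the stromal, endothelial and blood count from 5 to 7. The signs of the 4 strand differences and of the locus difference held under the alternatives run, although single probes of miR-200b gave either sign. With normexp correction, run on median spot signals with an offset of 50, the log2 differences were -0.42 for miR-200a, 0.84 for miR-200c, 5.33 for miR-141 and 2.70 between the loci. With the brightest probe they were -1.02, 2.99 and 7.96 for these hairpins and -2.15 between the seed groups. With the dimmest probe, added after the data were examined, they were -1.97, 1.89, 7.59 and -1.70 in the same order. From the software's total signal they were -1.72, 4.75, 9.99 and -1.77, with 3.94 between the loci. From the deposited normalized values they were 2.14 for miR-200c, 8.48 for miR-141, 4.29 between the loci and -2.51 between the seed groups. Without miR-141-3p the locus difference was 1.14 and the seed difference turned to 1.87, or to 1.36 with the brightest probe. With the percentile over all probes, miR-200b-3p, miR-200b-5p and miR-200c-3p moved above the reference, to 0.17, 0.52 and 0.053. Apart from the omission of miR-141-3p, the cause was not tested. Signal over background limits miR-200c-5p and miR-141-5p, with 0 spots well above it, and 1 probe of miR-200a-3p. No paired analysis was possible because only a single array was analysed.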
